A study of Mus musculus with 4 samples.

Results

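Integrins, the heterodimeric receptors by which cells hold on to matrix and to each other, and a group of their matrix ligands were examined in bleomycin-injured mouse lung. The set was a list of 32 genes chosen by name out of the 32286 in the count table. It holds 17 integrin alpha subunits, 8 beta subunits and 7 secreted ligands, namely Fn1, Tnc, Vtn, Thbs1, Thbs2, Postn and Npnt. Each gene was followed in 6 lung lineages and compared between wild-type and Tubb3-/- mice.

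Lungs came from 2 wild-type (WT) and 2 Tubb3-/- littermates, of both sexes and 8 to 11 weeks old, sampled 14 days after a single intratracheal dose of bleomycin at 0.8 U/kg. Tubb3 encodes β-III tubulin (Tuj1), and the null allele carries Cre in frame at the Tubb3 translation start, so the loss is present in every cell type, nerves included. Every mouse received bleomycin, so no value below compares injured with uninjured lung. Whole lung cells and mural cell-enriched cells of each mouse were tagged, and all mice were pooled into a single library of each kind. The mural-enriched cells were depleted of CD31+, CD45+, EpCAM+ and TER-119+ cells, after which sorted MCAM+ PDGFRα- and MCAM- cells were mixed 1:1. With 2 mice per genotype, a p-value measures the spread between these mice alone.

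An integrin is an alpha and a beta subunit that cross the membrane together, and the alpha subunit largely sets which ligand is bound. Itga1, Itga2, Itga10 and Itga11 pair with Itgb1 to bind collagen, Itga3, Itga6 and Itga7 bind laminin, and Itga5, Itga8, Itgav and Itga2b belong to the receptors of the arginine-glycine-aspartate motif in ligands such as fibronectin. Heterodimers of Itgav with Itgb6 or Itgb8 release latent TGF-β, the main fibrogenic cytokine, which is why this family is followed in fibrotic lung.

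Of 32121 deposited cells, 30083 were kept, and 15592 of these (51.8%) carried the marker of exactly 1 lineage. Another 13731 (45.6%) carried markers of several lineages and were dropped. The retained cells were 3785 fibroblasts (1 or more UMIs of Pdgfra), 4505 mural cells (Higd1b or Myh11), 4383 immune cells (Ptprc), 2276 endothelial cells (Cdh5), 321 epithelial cells (Epcam) and 322 mesothelial cells (Msln). Their UMIs (unique molecular identifiers, each standing for a captured RNA molecule) were summed per mouse and lineage and are given as counts per 1000000 UMIs of that sum (CPM). The sums over the 4 mice ran from 4687217 UMIs in mesothelial cells to 68423489 in fibroblasts. With cells divided by mouse and pool, Tubb3 itself stood at 0.855 to 5.49 CPM in the 4 WT sets and at 0.280 to 0.714 CPM in the 4 Tubb3-/- sets. Every mutant set lay below every WT set. Of the barcodes, 54 occurred in both pools. Xist and Y-linked transcripts showed that replicate 1 of each genotype was male and replicate 2 female, so replicate number and sex cannot be told apart.

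The gates were checked against marker lists that they had not used. Fibroblast markers (Col1a1, Dcn, Lum, Tcf21, Mfap4 and Pdgfrl) summed to 7310 to 9308 CPM in fibroblasts, but also to 1878 and 1536 CPM in WT mural cells and to 3184 and 2727 CPM in Tubb3-/- mural cells. Mural markers (7 genes, among them Notch3 and Acta2) summed to 18160 to 21836 CPM in mural cells, to 663 and 700 CPM in WT fibroblasts and to 1396 and 1038 CPM in Tubb3-/- fibroblasts. Of the 4505 mural cells, 3670 lay in clusters that carried mural markers and 723 in clusters that carried fibroblast markers. Clusters named by their markers, an alternative added after the data were seen, gave second values for the members that lead the genotype comparison in fibroblasts and mural cells. These clusters are not the gated cells alone, since they took in cells that the gates dropped for several markers. The fibroblast clusters held 5364 such cells beside 3211 gated fibroblasts. Mural clusters held 1724 beside 3670 gated mural cells, and mesothelial clusters 543 beside 260 gated mesothelial cells. Of the gated fibroblasts, 558 lay in unnamed clusters. The part of the marker overlap between lineages in the genotype differences was not tested further.

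Marker UMIs were also counted in cells that should lack them. A Myh11 UMI was found in 60.3 to 63.8% of the cells with Ptprc, the CD45 gene of leukocytes, in the mural-enriched pool of each mouse, at median depths of 13067 to 18547 UMIs, and in 12.3 to 14.7% of those in the whole-cell pool, at 9293 to 12019 UMIs. Cells with the endothelial Cdh5 or the epithelial Epcam held Myh11 at a like share, 46.4 to 54.8% and 52.8 to 57.9% in the mural-enriched pool. For Higd1b the share in cells with Ptprc was 1.22 to 3.97% and 0.406 to 1.03%. A single Myh11 UMI is therefore weak evidence of a mural cell in the mural-enriched pool, which gave 88.6 to 92.3% of the gated mural cells of each mouse. Free RNA and mixed droplets cannot be told apart in these counts.

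The lineages differed in every member: all 32 passed the test of any difference among the 6 lineages (edgeR's quasi-likelihood F test with mouse as a block and Benjamini-Hochberg adjustment), as did 95.9% of all genes tested. The highest level fell in mural cells for 11 members, in immune cells for 8, in fibroblasts for 5, in endothelial cells for 4, in epithelial cells for 3 and in mesothelial cells for 1. The highest lineage passed the test over the second for 26 members. It did not for Itga3, Itga2b, Itgb3, Itgb5, Tnc and Thbs1. In the clusters, 28 members had the same highest lineage. The exceptions were Itga3, Itgb5, Thbs1 and Thbs2.

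**Figure D1:**
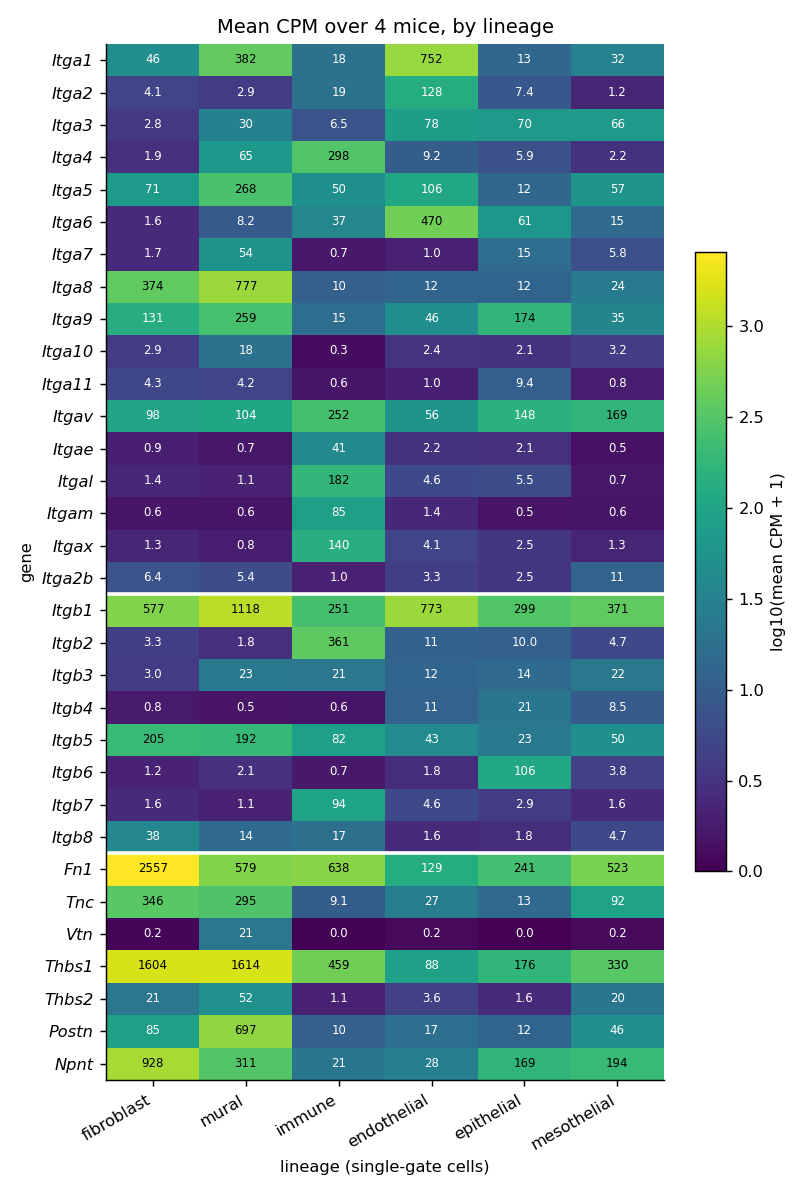
Level of each of the 32 members in each of the 6 lineages, as the mean CPM of the 4 mice printed in each box and coloured by log10(mean CPM + 1), with white lines between alpha subunits, beta subunits and ligands. Itgb2, Itgal, Itgam, Itgax, Itgb7 and Itgae peaked in the immune column, with 0.366 to 5.36% of that level in the other lineages, Itga8, Itgb1 and Postn peaked in mural cells, and Fn1 and Npnt peaked in fibroblasts.

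Among collagen receptors, Itga1 was an endothelial and mural gene. Its level was 752 ± 107 CPM in endothelial cells and 382 ± 86.2 CPM in mural cells (mean ± SD, n = 4 mice here and in all levels that follow), against 46.1 ± 12.8 CPM in fibroblasts. The endothelial level was above the mural level in every mouse (log2 difference 0.80 ± 0.17 SE, edgeR adjusted p = 0.000306). The mural level was a sum over unlike cells. Those with more Higd1b than Myh11 UMIs held Itga1 at 1474 to 2028 CPM, and those with more Myh11 at 280 to 360 CPM. Itga2, the other broadly used collagen receptor subunit, stood at 128 ± 18.3 CPM in endothelial cells and at 18.5 ± 8.53 CPM in immune cells. Itga10 was highest in mural cells at 18.2 ± 0.830 CPM. Itga11, which binds fibrillar collagen, was low everywhere, with 9.38 ± 5.89 CPM in epithelial cells and 4.30 ± 1.06 CPM in fibroblasts, and in the clusters these 2 lineages differed by -0.11 on the log2 scale (adjusted p = 0.711).

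Within the endothelium the collagen and laminin receptors separated by capillary type. General capillary cells, the main lining of the alveolar capillaries, held Itga1 at 752 to 1090 CPM over the mice, and aerocytes, the wide capillary cells of the gas-exchange surface, held it at 281 to 313 CPM. Itga6, a laminin receptor subunit, was at 542 to 613 CPM in general capillary cells and at 28.5 CPM or less in aerocytes. Itga3, the other main laminin receptor subunit, ran the opposite way, at 251 to 452 CPM in aerocytes against 49.7 to 63.7 CPM in general capillary cells. Itgb5, a partner of Itgav, was at 171 to 354 CPM in aerocytes and at 7.86 to 15.4 CPM in general capillary cells. In none of these 4 genes did the ranges of both capillary types overlap, and no test was run on these 122 aerocytes and 1350 general capillary cells.

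Among laminin receptors over whole lineages, Itga6 was endothelial, at 470 ± 32.6 CPM against 60.7 ± 8.06 CPM in epithelial cells (log2 difference 2.88 ± 0.18 SE). Itga3 was shared, at 78.1 ± 13.5 CPM in endothelial, 69.7 ± 14.0 CPM in epithelial and 66.0 ± 6.24 CPM in mesothelial cells, and the first of these did not pass the test over the second (adjusted p = 0.742). Itga7, the laminin receptor subunit of muscle, was at 54.0 ± 3.16 CPM in mural cells and at 15.4 ± 4.53 CPM in epithelial cells. Itgb4, the hemidesmosome subunit that pairs with Itga6, was highest in epithelial cells at 20.8 ± 9.14 CPM, with endothelial cells at 11.2 ± 1.47 CPM (log2 difference 0.90 ± 0.30 SE, adjusted p = 0.0134).

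Among receptors of fibronectin and related ligands, Itga5 and Itga8 were mural genes. Itga5, the classical fibronectin receptor subunit, was at 268 ± 73.2 CPM in mural and 106 ± 5.92 CPM in endothelial cells. Itga8, which binds nephronectin, was at 777 ± 69.2 CPM in mural cells and 374 ± 143 CPM in fibroblasts, and far lower in the other 4 lineages. The mural level exceeded the fibroblast level in each mouse, by 1.02 ± 0.16 on the log2 scale (adjusted p = 1.92e-05). Itga9, which binds tenascin-C among other ligands, was at 259 ± 25.8 CPM in mural cells, 174 ± 53.0 CPM in epithelial cells and 131 ± 8.67 CPM in fibroblasts.

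The beta subunits showed which partners were at hand. Itgb1, the partner of most alpha subunits, was present in every lineage, from 251 ± 2.36 CPM in immune cells to 1118 ± 69.2 CPM in mural cells. Itgb5 was close to equal in fibroblasts (205 ± 28.6 CPM) and mural cells (192 ± 4.39 CPM), whose difference did not pass the test (0.17 ± 0.16 on the log2 scale, adjusted p = 0.439). Itgb3, the vitronectin receptor subunit, lay between 12.1 and 23.2 CPM in 5 lineages and at 3.03 ± 0.511 CPM in fibroblasts.

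The TGF-β-activating subunits lay in separate lineages. Itgb6 was at 106 ± 12.8 CPM in epithelial cells and at 3.75 ± 3.07 CPM or less elsewhere. Within the epithelium it ran at 232 to 416 CPM in the 59 alveolar type 1 cells and at 24.1 to 138 CPM in the 93 alveolar type 2 cells. Itgb8 was highest in fibroblasts at 38.1 ± 6.89 CPM, ahead of immune cells at 16.9 ± 9.53 CPM (log2 difference 1.26 ± 0.22 SE, adjusted p = 2.01e-05). Itgav, the partner of both, was highest in immune cells at 252 ± 71.6 CPM. In T cells Itgav ran at 350 to 1209 CPM and Itgb8 at 22.0 to 116 CPM over the mice.

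The leukocyte integrins followed the immune gate. Itgb2, the common leukocyte beta subunit, was at 361 ± 39.7 CPM in immune cells, and its alpha partners Itgal, Itgam and Itgax stood there at 182 ± 30.6, 84.7 ± 21.3 and 140 ± 16.7 CPM. Itgb7, of lymphocyte homing, was at 94.4 ± 11.8 CPM and its partner Itgae, a receptor for E-cadherin, at 40.9 ± 12.8 CPM. In the other 5 lineages these 6 genes stood at 0.366 to 5.36% of their immune level. The 5 immune markers Cd52, Laptm5, Coro1a, Cd53 and Rac2 stood there at 0.446 to 2.87% of theirs.

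Itga4, the receptor subunit for VCAM-1, departed from this in mural cells. It was at 298 ± 20.9 CPM in immune cells and at 52.1, 79.2, 57.8 and 69.9 CPM in the mural cells of the 4 mice, which is 21.7% of the immune level where the immune markers reached 0.632% at most. In fibroblasts it was at 1.94 ± 0.417 CPM. Among immune cells, natural killer (NK) cells held Itga4 at 497 to 746 CPM.

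Other members also divided the immune cells. Itga2, known in mice as the NK cell antigen DX5, was at 285 to 432 CPM in NK cells and at 8.55 to 19.3 CPM in T cells. Itgae ran at 131 to 213 CPM in dendritic cells, above the 36.9 to 83.1 CPM of T cells. Itgam and Itgal were at 305 to 423 and 378 to 470 CPM in neutrophils. The platelet subunit Itga2b was highest in mesothelial cells at 11.1 ± 2.65 CPM, ahead of fibroblasts at 6.4 ± 0.965 CPM, a difference that did not pass the test (adjusted p = 0.139).

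Among the ligands, fibronectin (Fn1) was a fibroblast transcript, at 2557 ± 980 CPM against 638 ± 144 CPM in immune and 579 ± 148 CPM in mural cells. Among immune cells, macrophages other than alveolar ones held Fn1 at 1383 to 1808 CPM. Nephronectin (Npnt), the ligand of Itga8, was at 928 ± 348 CPM in fibroblasts and 311 ± 26.9 CPM in mural cells, and in alveolar type 1 cells it ran at 234 to 543 CPM. Receptor and ligand of this axis were thus both highest in mural cells and fibroblasts, in opposite order.

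Periostin (Postn), a matricellular protein of remodelling tissue, was at 697 ± 147 CPM in mural cells and 84.6 ± 44.6 CPM in fibroblasts (log2 difference 3.07 ± 0.23 SE). Vitronectin (Vtn) was at 21.3 ± 8.84 CPM in mural cells and below 1 CPM in each of the other 5 lineages, with 0 UMIs in epithelial cells, which at that depth allows up to 0.528 CPM. Tenascin-C (Tnc) was at 346 ± 116 CPM in fibroblasts and 295 ± 80.2 CPM in mural cells by the gates, which did not pass the test (adjusted p = 0.427). In the clusters Tnc was 1.67 ± 0.13 higher in fibroblasts on the log2 scale.

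The order of mural cells and fibroblasts in the thrombospondins depended on how cells were kept and assigned to lineages. Thbs1 was at 1614 ± 256 CPM in mural cells and 1604 ± 231 CPM in fibroblasts by the gates, and at 1429 and 1842 CPM in the clusters. Thbs2, which acts on collagen fibril assembly, was higher in mural cells by the gates (51.9 ± 17.9 against 21.4 ± 9.93 CPM) and higher in fibroblasts by the clusters (43.2 against 23.7 CPM). Outside the mesenchyme, Thbs1 was at 3835 to 4881 CPM in neutrophils.

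The genotype comparison asked whether loss of β-III tubulin came with other integrin or ligand levels in any lineage of the fibrotic lung. No member passed edgeR's quasi-likelihood test at an adjusted p of 0.05 in any of the 6 lineages, out of 30 tested in fibroblasts, 29 in mural, 26 in immune, 26 in endothelial, 21 in epithelial and 18 in mesothelial cells. The share of all genes called was 0% in the first 5 lineages and 0.231% in mesothelial cells. At an unadjusted p under 0.05 there were 10, 6, 4, 5, 2 and 6 members in the same order, where 18.1, 11.1, 8.36, 13.7, 4.26 and 8.37% of all genes lay under it. DESeq2 called 4, 2, 2, 0, 0 and 1 members, among 3.42, 1.14, 0.490, 0.976, 0.0288 and 0.378% of all genes. A fit with a term for sex was added after the data were seen and is identical to the fit with replicate number as a block. It called 9, 4, 0, 0, 0 and 5 members, among 10.6, 3.63, 0.163, 1.39, 0 and 2.89% of all genes.

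In fibroblasts, among members that averaged 10 CPM or more and did not overlap between genotypes, the 3 largest fold changes were in ligands. Postn was at 58.8 and 40.4 CPM in the WT mice and at 141 and 98.6 CPM in the Tubb3-/- mice. Both mutants lay above both WT mice, and within each genotype the male was the higher (log2 fold change 1.26 ± 0.26 SE, edgeR adjusted p = 0.121). Fn1 was at 1890 and 1544 CPM in WT and at 3403 and 3390 CPM in Tubb3-/- fibroblasts. The mutants were nearly equal and stood clear of both WT mice (0.97 ± 0.18, adjusted p = 0.105). Tnc was at 304 and 201 CPM in WT and at 442 and 439 CPM in Tubb3-/- mice, again without overlap (0.79 ± 0.23, adjusted p = 0.185).

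Npnt and its receptor subunit Itga8 lay in the opposite direction. Npnt was at 855 and 1435 CPM in the WT and 650 and 773 CPM in the Tubb3-/- mice (-0.68 ± 0.22, adjusted p = 0.215). Itga8 was at 347 and 580 CPM in the WT and 257 and 312 CPM in the Tubb3-/- mice (-0.70 ± 0.22, adjusted p = 0.202). In both genes the WT female was far above the WT male, and the mutants lay below both.

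Of the receptor subunits, Itga1 had the smallest p. It was at 34.7 and 35.5 CPM in the WT and 55.2 and 58.9 CPM in the Tubb3-/- fibroblasts, a gap wide against the spread within genotypes (0.70 ± 0.09, adjusted p = 0.0792). Itgb5 (187 and 176 against 235 and 223 CPM) and Itgb8 (36.0 and 29.4 against 45.0 and 41.9 CPM) also had both mutants above the WT mice. Of the 14 members that averaged 10 CPM or more in fibroblasts, 64.3% had genotypes that did not overlap, as did 51.7% of all genes at that level.

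DESeq2 called Itga1, Fn1, Tnc and Postn as higher in Tubb3-/- fibroblasts, where it called 3.42% of all genes. The fit with a term for sex called these 4 and Itga2, Itgb5 and Itgb8 as higher and Itga8 and Npnt as lower, where it called 10.6% of all genes. Without WT replicate 1 edgeR called 8 members, among 6.43% of all genes, and without WT replicate 2 it called 2, among 3.41%, while without either Tubb3-/- mouse it called 0. In the fibroblast clusters it called Itga1 alone, at 0.48 ± 0.07 (adjusted p = 0.0336), among 2.68% of all genes. There the log2 fold changes were 1.2 ± 0.22 for Postn, 0.86 ± 0.16 for Fn1, 0.79 ± 0.25 for Tnc, 0.34 ± 0.07 for Itgb8 and 0.32 ± 0.09 for Itgb5. Npnt was at -0.57 ± 0.18 and Itga8 at -0.49 ± 0.13 in the clusters, and the adjusted p of these 7 members ran from 0.0520 (Fn1) to 0.140 (Tnc). Summed mural markers in the fibroblast gate were also higher in the mutants. Of that sum Acta2, whose protein αSMA the authors also used to detect activated fibroblasts, was at 302 and 312 against 603 and 438 CPM. Overlap with mural cells as a source of the differences in members was not tested beyond the clusters.

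**Figure D2:**
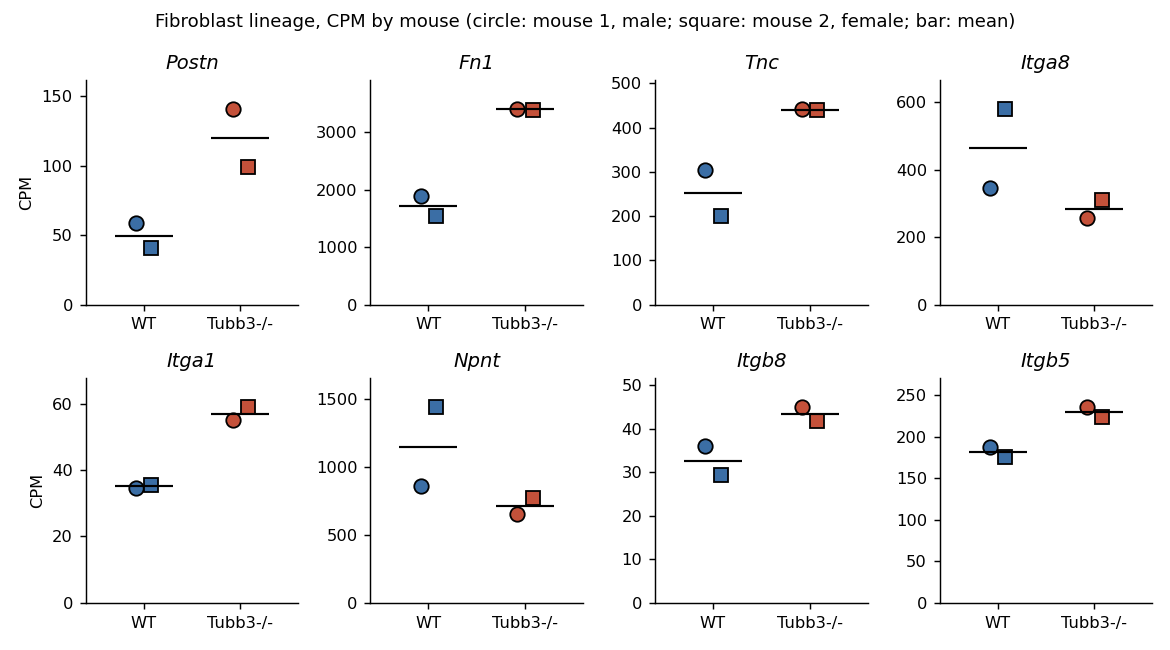
CPM of 8 members in fibroblasts of each mouse on axes that start at 0, with WT in blue, Tubb3-/- in red, males as circles, females as squares and bars at the genotype means. Fn1, Tnc, Postn, Itga1, Itgb5 and Itgb8 had both Tubb3-/- mice above the WT mice, and Npnt and Itga8 had them below.

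In mural cells, among members that averaged 10 CPM or more and did not overlap between genotypes, the 4 largest fold changes were in ligands. Fn1 was at 466 and 438 CPM in the WT and 726 and 687 CPM in the Tubb3-/- mice (0.64 ± 0.12, adjusted p = 0.191). Tnc was at 249 and 208 against 382 and 340 CPM (0.65 ± 0.16, adjusted p = 0.258). Postn was at 503 and 664 against 825 and 797 CPM (0.48 ± 0.14, adjusted p = 0.293). Thbs2 was at 45.5 and 29.6 against 64.2 and 68.3 CPM (0.79 ± 0.22, adjusted p = 0.294). Both mutants lay above both WT mice in each of these 4 genes.

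Those differences moved with the summed fibroblast markers in the mural gate, which were at 1878 and 1536 CPM in the WT and 3184 and 2727 CPM in the Tubb3-/- mice. Within that sum Col1a1 was at 915 and 819 against 1773 and 1579 CPM. In the mural clusters the log2 fold changes were 0.39 for Fn1, 0.49 for Tnc, 0.42 for Postn and -0.24 for Thbs2, so that Thbs2 changed direction. In the whole-cell pool alone they were 0.41, 0.92, 0.05 and 0.99. DESeq2 called Fn1 and Tnc in the gate, among 1.14% of all genes, and the fit with a term for sex called Fn1, Tnc, Thbs2 and Postn, among 3.63%. Of the 20 members at a mean of 10 CPM or more, 50% did not overlap between genotypes, against 42.9% of all genes. Among the receptors, Itgb8 was at 12.9 and 12 CPM in WT and 15.4 and 17.2 CPM in mutant mural cells (0.37 ± 0.14, adjusted p = 0.401), while Itga8 differed by -0.17 ± 0.14 and Itga3 by -0.18 ± 0.14.

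In immune cells the lowest p was that of Itga2. It was at 24.9 and 26.7 CPM in the WT and 11.9 and 10.4 CPM in the Tubb3-/- mice (-1.19 ± 0.13, edgeR adjusted p = 0.204). The NK cells, in which Itga2 was highest, made up 4.49 and 7.33% of WT and 3.42 and 2.48% of Tubb3-/- immune cells. Fewer such cells and less RNA per cell cannot be told apart in this sum. Within the 54 and 71 WT and 41 and 25 Tubb3-/- NK cells Itga2 was at 432 and 337 against 285 and 317 CPM, which was not tested.

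Itgb5, highest among immune cells in macrophages other than alveolar ones, was at 61.6 and 66.7 CPM in the WT and 104 and 96.9 CPM in the Tubb3-/- mice (0.66 ± 0.09, adjusted p = 0.225). Those macrophages were 7.89 and 6.30% of WT and 10.1 and 9.01% of mutant immune cells. Fn1, also of macrophages, was at 579 and 462 against 734 and 775 CPM (0.55 ± 0.14, adjusted p = 0.499). Postn was low, at 5.87 and 7.50 against 13.0 and 14.5 CPM (1.06 ± 0.17). Fibroblast markers in the immune gate summed to 144 and 227 against 300 and 223 CPM, and their genotypes overlapped. Col1a1, within that sum, was at 53.9 and 60.3 against 149 and 111 CPM. DESeq2 called Itga2 as lower and Itgb5 as higher, among 0.490% of all genes. The fit with a term for sex called 0.163% of all genes and 0 members. Of 22 members, 31.8% did not overlap between genotypes, against 42.0% of all genes.

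In endothelial cells the collagen receptor subunits Itga1 and Itga2 had lower values in the mutants, without passing the test. Itga1 was at 843 and 838 CPM in the WT and 623 and 705 CPM in the Tubb3-/- mice (-0.33 ± 0.10, adjusted p = 0.233). Itga2 was at 150 and 134 against 107 and 120 CPM (-0.30 ± 0.11, adjusted p = 0.321). Both genes had both mutants below both WT mice. Itga9 was at 44.3 and 36.4 against 55.4 and 49.5 CPM (0.41 ± 0.15), and Thbs1 at 76.5 and 78.4 against 110 and 86.2 CPM (0.36 ± 0.14). Lymphatic cells, in which Itga9 was highest among endothelial cells, were 0.539 and 0.739% of WT and 1.13 and 1.37% of Tubb3-/- endothelial cells, and held 9, 11, 56 and 67 of the Itga9 UMIs of the 4 mice. Aerocytes, in which Itga2 was highest among them, were 7.55 and 5.18% against 5.64 and 3.97%. The part of these shares in the 2 differences was not tested.

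DESeq2 and the fit with a term for sex called none of these, where they called 0.976 and 1.39% of all genes. Of 18 members, 38.9% did not overlap, against 46.6% of all genes. Endothelial Tnc was called in the clusters (0.98 ± 0.17, adjusted p = 0.0390), among 1.06% of all genes. By the gates it was at 12.5 and 17.8 against 61.1 and 17.4 CPM, and 79.3% of the 425 UMIs of Tubb3-/- replicate 1 came from 5 cells.

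Epithelial cells were few, and the 2 members with the lowest p rested on them unevenly. Fn1 was at 96.8 and 77.9 CPM in the WT and 140 and 651 CPM in the Tubb3-/- mice (2.16 ± 0.66, adjusted p = 0.979), and a single cell held 78.4% of the 904 UMIs of the highest mouse. Itga9 was at 177 and 246 against 122 and 152 CPM (-0.67 ± 0.24, adjusted p = 0.979), with the mutants below the WT mice. Itga9 was highest in alveolar type 2 cells, which were 21.0 and 44.4% of WT and 26.4 and 23.6% of mutant epithelial cells. DESeq2 called 0.0288% of all genes and the fit with a term for sex 0%, and neither called a member. Of 18 members, 16.7% did not overlap, against 34.2% of all genes.

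In mesothelial cells, among members that averaged 10 CPM or more and did not overlap between genotypes, the largest fold changes were again in ligands. Postn was at 25.9 and 18.9 CPM in the WT and 84.2 and 56.0 CPM in the Tubb3-/- mice (1.67 ± 0.30, edgeR adjusted p = 0.0817). Fn1 was at 380 and 258 against 920 and 534 CPM (1.2 ± 0.28, adjusted p = 0.181). Thbs1 was at 306 and 143 against 497 and 373 CPM (0.98 ± 0.31, adjusted p = 0.359). Thbs2 was at 5.97 and 10.8 against 46.6 and 16.5 CPM (1.85 ± 0.54), and Tnc at 84.6 and 13.5 against 176 and 92.8 CPM (1.56 ± 0.60).

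Summed fibroblast markers were higher as well, at 3041 and 3664 against 4592 and 3833 CPM in the mesothelial gate. The rise of that sum lay in Col1a1, a matrix gene, at 721 and 460 against 2045 and 1366 CPM. Summed mural markers were at 415 and 430 against 830 and 607 CPM. In the mesothelial clusters the log2 fold change of Fn1 was -0.39 and that of Thbs2 -0.05, so that both changed direction. DESeq2 called Postn, among 0.378% of all genes, and the fit with a term for sex called Fn1, Tnc, Thbs1, Thbs2 and Postn, among 2.89%. Of 17 members, 70.6% did not overlap between genotypes, against 37.8% of all genes.

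Whether a genotype difference was unequal between lineages was tested by the interaction of genotype and lineage. It called 0 of 32 members and 0.0367% of all genes, with 4 members (Itga1, Itga2, Itga9 and Itgb5) and 8.56% of all genes at an unadjusted p under 0.05. Itga2 had the smallest edgeR adjusted p, 0.0951, with log2 fold changes of -1.19 in immune, -0.30 in endothelial and -0.73 in epithelial cells and of 0.91 in fibroblasts and 0.64 in mural cells. It averaged 7.37 CPM in epithelial cells and less in fibroblasts and mural cells, under the 10 CPM used for naming members. DESeq2 called 1 member, Itgb5 (adjusted p = 0.0128), among 1.74% of all genes. The direction of Itga1, up in fibroblasts and down in endothelial cells, is part of what this test compared, and it did not pass.

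**Figure D3:**
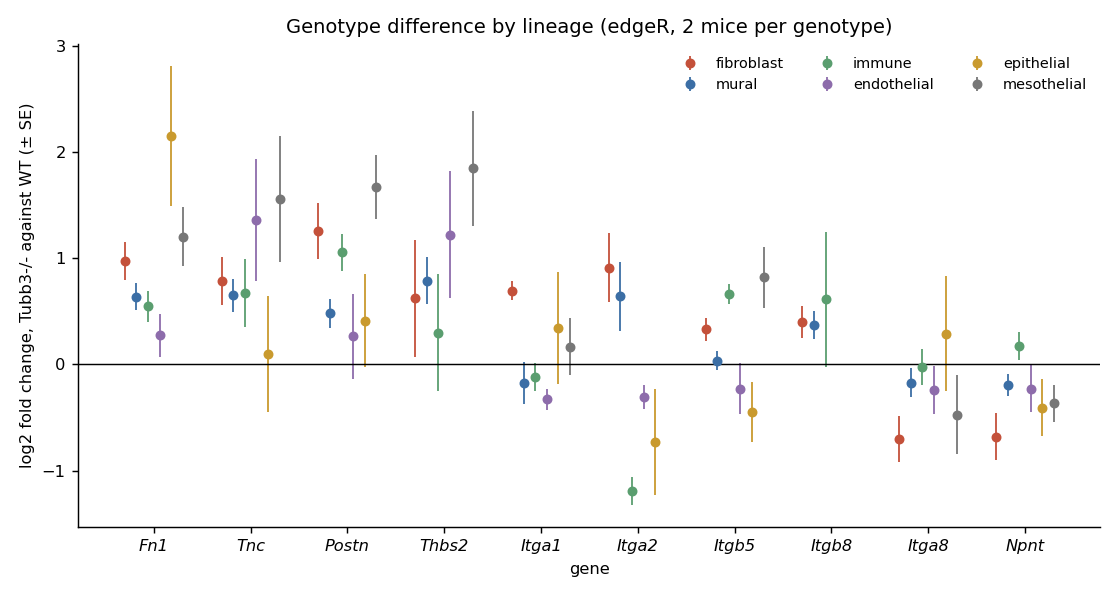
Log2 fold change of Tubb3-/- against WT with its standard error for 10 members, with a colour for each lineage in which the member was tested. The ligands Fn1, Tnc and Postn were above 0 in fibroblast, mural and mesothelial cells, Npnt and Itga8 were below 0 in fibroblasts, and no point passed the adjusted threshold.

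The Cthrc1 comparison split the fibroblasts by the transcript that marks fibrotic, collagen-rich fibroblasts. Cells with 1 or more Cthrc1 UMIs were 21.0 and 17.4% of WT fibroblasts and 32 and 29% of Tubb3-/- fibroblasts. In the mural-enriched pool these shares were 25, 21.8, 39.1 and 34.2% for WT replicates 1 and 2 and Tubb3-/- replicates 1 and 2, and cells with Ptprc, which should lack Cthrc1, held it at 19.5, 20.6, 27.9 and 30.7%. In the whole-cell pool the shares were 12.8, 8.88, 20.3 and 19.3%, against 4.37, 4.34, 6.43 and 4.70% of cells with Ptprc, whose median depths of 9293 to 12019 UMIs were below the 14534 to 20050 of fibroblasts. The shares of fibroblasts lay closer to those of cells with Ptprc in the mural-enriched than in the whole-cell pool in each mouse. Cells with Epcam, deeper than the fibroblasts of the same mouse and pool, held Cthrc1 at 28.6, 23.6, 34.3 and 26.6% in the mural-enriched pool. That is above the fibroblasts in both WT mice. In the whole-cell pool they held it at 6.10, 9.50, 6.42 and 7.04%, above the fibroblasts in WT replicate 2 alone. Cells with Cdh5 lay below the fibroblasts in every mouse and pool. Of 27 members tested, 10 differed between Cthrc1+ and Cthrc1- fibroblasts of the same mice, 8 higher and 2 lower, where 11.9% of all genes were called. DESeq2 called 9, among 8.06% of all genes. Leaving out Tubb3-/- replicate 1 or Tubb3-/- replicate 2 gave 6, among 5.25 and 5.64%. In the whole-cell pool alone edgeR called 9 of 19 members tested, among 12.3% of all genes, with Postn at 4.28 ± 0.25, Thbs2 at 2.96 ± 0.31, Tnc at 1.79 ± 0.17 and Npnt at -1.36 ± 0.17. Cthrc1+ cells were deeper, with a median of 19343 UMIs against 16428.5.

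The 3 largest rises among ligands were in Postn, Thbs2 and Tnc. Postn was at 26.4, 19.3, 40.1 and 36.5 CPM in the Cthrc1- fibroblasts of WT replicates 1 and 2 and Tubb3-/- replicates 1 and 2, and at 162, 130, 322 and 225 CPM in their Cthrc1+ fibroblasts (2.81 ± 0.08 on the log2 scale, edgeR adjusted p = 1.30e-07). Thbs2 was at 11.5, 3.71, 12.5 and 12.6 CPM in Cthrc1- and at 72.1, 22.3, 61.4 and 42.3 CPM in Cthrc1+ cells (2.32 ± 0.13). Tnc was at 226, 156, 300 and 360 CPM in Cthrc1- and at 553, 391, 697 and 598 CPM in Cthrc1+ cells (1.18 ± 0.09). Each of the 4 mice showed the rise in all 3 genes.

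Fn1 rose by a smaller step, 0.47 ± 0.04 (adjusted p = 0.000175), from levels that were already high in Cthrc1- cells. Among receptors, Itgb3 (1.27 ± 0.28), Itgb5 (0.46 ± 0.09), Itga5 (0.45 ± 0.11) and Itga1 (0.27 ± 0.07) were higher in Cthrc1+ cells, which are subunits of vitronectin, fibronectin and collagen receptors. In WT replicate 2 Itga5 was not higher in the Cthrc1+ cells. Itgb3 rested on 105 UMIs in Cthrc1- and 98 UMIs in Cthrc1+ cells.

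Nephronectin and its receptor were the members that fell. Npnt was at 945, 1502, 809 and 936 CPM in Cthrc1- cells and at 572, 1149, 363 and 443 CPM in Cthrc1+ cells (-0.79 ± 0.10, adjusted p = 0.000915). Itga8 was at 376, 597, 306 and 352 CPM in Cthrc1- and at 256, 511, 168 and 231 CPM in Cthrc1+ cells (-0.52 ± 0.08, adjusted p = 0.00291). Both were lower in the Cthrc1+ cells of each of the 4 mice.

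**Figure D4:**
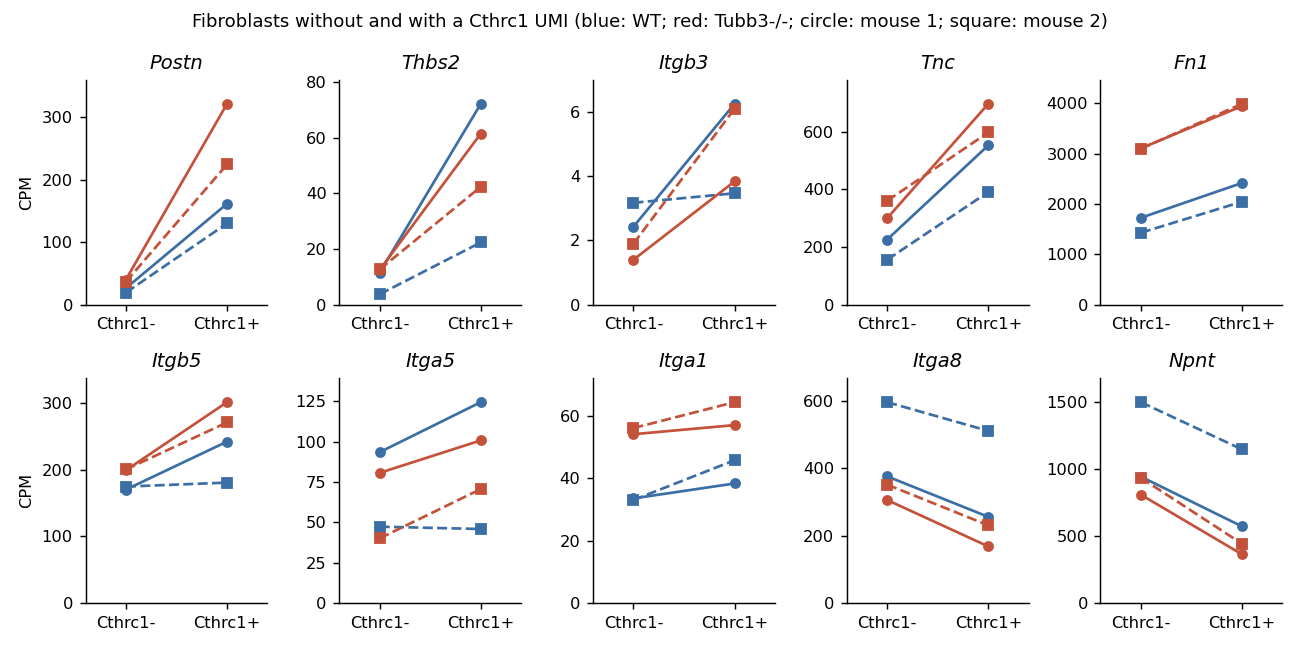
CPM of the 10 members called in Cthrc1- against Cthrc1+ fibroblasts, on axes that start at 0, with a line joining the 2 values of each mouse (WT in blue, Tubb3-/- in red). Lines rise for Postn, Thbs2, Tnc and Fn1 in all 4 mice and fall for Npnt and Itga8 in all 4 mice.

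The start-site windows of the 3 ligands with the largest rise among ligands and of the 2 genes that fell are shown because the values of these genes are given in full above. Sequences are from RefSeq on GRCm38.p6, 250 bases before to 50 after the annotated start, 5′ to 3′ on the gene's strand. They lie at chr3:54360857-54361156 on the plus strand for Postn, and on the minus strand at chr4:64046966-64047265 for Tnc, chr17:14694213-14694512 for Thbs2, chr3:132950242-132950541 for Npnt and chr2:12301895-12302194 for Itga8. Capitals mark the TATA box letters TATAAA, searched on both strands, so that the match of Thbs2, on the other strand, reads TTTATA.
Postn: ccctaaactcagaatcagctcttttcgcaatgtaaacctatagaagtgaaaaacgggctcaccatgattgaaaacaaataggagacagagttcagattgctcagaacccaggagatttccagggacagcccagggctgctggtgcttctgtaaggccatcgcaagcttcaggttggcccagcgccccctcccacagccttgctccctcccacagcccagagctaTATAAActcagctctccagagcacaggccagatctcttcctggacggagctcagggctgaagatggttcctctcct
Tnc: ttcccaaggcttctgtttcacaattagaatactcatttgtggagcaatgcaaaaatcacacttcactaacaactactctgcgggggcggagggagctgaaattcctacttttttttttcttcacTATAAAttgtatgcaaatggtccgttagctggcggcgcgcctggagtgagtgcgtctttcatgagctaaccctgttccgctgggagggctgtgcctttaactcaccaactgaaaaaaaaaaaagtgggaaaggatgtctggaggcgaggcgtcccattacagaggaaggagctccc
Thbs2: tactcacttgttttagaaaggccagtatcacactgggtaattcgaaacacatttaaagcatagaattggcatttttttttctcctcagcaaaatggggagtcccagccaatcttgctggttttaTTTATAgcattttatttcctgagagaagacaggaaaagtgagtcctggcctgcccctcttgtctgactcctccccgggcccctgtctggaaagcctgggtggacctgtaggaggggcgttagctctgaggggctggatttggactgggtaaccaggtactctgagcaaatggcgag
Npnt: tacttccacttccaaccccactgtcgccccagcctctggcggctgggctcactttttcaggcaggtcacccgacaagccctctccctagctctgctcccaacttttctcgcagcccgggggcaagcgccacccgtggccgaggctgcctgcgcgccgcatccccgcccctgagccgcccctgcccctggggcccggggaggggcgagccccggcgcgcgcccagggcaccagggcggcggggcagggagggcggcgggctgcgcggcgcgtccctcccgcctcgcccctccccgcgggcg
Itga8: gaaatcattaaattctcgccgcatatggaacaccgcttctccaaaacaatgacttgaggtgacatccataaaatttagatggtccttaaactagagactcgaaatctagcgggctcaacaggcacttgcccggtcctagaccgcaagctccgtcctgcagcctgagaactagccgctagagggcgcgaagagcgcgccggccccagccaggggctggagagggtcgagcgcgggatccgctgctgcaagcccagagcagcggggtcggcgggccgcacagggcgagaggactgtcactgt

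A match lies in the windows of Postn, Tnc and Thbs2, starting 26 bases before the annotated start in Postn and 126 bases before it in Tnc and Thbs2. None lies in the shown windows of Npnt and Itga8, nor in the windows of Itga1, Itga5 and Itgb5, which were higher in Cthrc1+ cells. Of all 32851 windows of this length, 13.6% hold these letters. RefSeq windows were matched for 23 of the 32 members, 28 windows in all. The letters lie in 5 of them, namely 2 overlapping windows of Tnc and 1 each of Thbs2, Vtn and Postn, whose second window lacks them. The AP-1 letters TGANTCA lie in 3 of the 28 windows and in 7.81% of all windows, and the TEAD letters GGAATG in 3 of the 28 and in 14.7% of all, both searched on both strands. A match describes the letters and is not evidence of binding.

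The genotype comparison was repeated within each Cthrc1 class, since the share of Cthrc1+ cells was higher in the mutants. No member passed edgeR's test in either class, of 30 tested in Cthrc1- and 22 in Cthrc1+ cells, with 9 and 8 members and 16.0 and 14.3% of all genes at an unadjusted p under 0.05, and with 0.00710 and 0.0328% of all genes called. Postn was at 162 and 130 CPM in WT and 322 and 225 CPM in Tubb3-/- Cthrc1+ cells (0.94 ± 0.22, adjusted p = 0.151). In Cthrc1- cells its log2 fold change was 0.71 ± 0.19 (adjusted p = 0.177). In the clusters Postn was at 52.8 and 42.0 CPM in WT and 130 and 129 CPM in Tubb3-/- Cthrc1- cells and passed (1.43 ± 0.14, adjusted p = 0.0316, among 1.37% of all genes). Fn1 was at 2415 and 2042 CPM in WT and 3943 and 3987 CPM in mutant Cthrc1+ cells (0.86 ± 0.14), and at 0.94 ± 0.17 on the log2 scale in Cthrc1- cells. For both genes the genotypes did not overlap in either class.

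DESeq2 called Itga1, Fn1 and Tnc as higher in the mutants in Cthrc1- cells, among 2.25% of all genes. In Cthrc1+ cells it called Fn1 and Postn as higher and Npnt as lower, among 1.64%. The fit with a term for sex called 5 members in Cthrc1- cells (Itga1, Itga2, Fn1 and Postn higher, Itga8 lower), among 4.86% of all genes. In Cthrc1+ cells it called 7 (Itga1, Itgb5, Fn1, Tnc and Postn higher, Itga8 and Npnt lower), among 5.19%. Of the 14 members at 10 CPM or more, 64.3% did not overlap between genotypes in either class, against 50.3% of all genes in Cthrc1- and 49.7% in Cthrc1+ cells.

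Mural cells were then divided into those with Higd1b, a pericyte marker, and those with Myh11, the smooth muscle myosin. Of 23 members tested, 14 differed, 4 higher and 10 lower in Higd1b cells, where 15.1% of all genes were called, but 4 of the 10 rested on 1 to 6 UMIs on the Higd1b side. Only 11 and 16 WT and 10 and 5 Tubb3-/- cells held Higd1b without a Myh11 UMI. Of all cells with Higd1b, 82.5 to 91.0% also held Myh11 in the mural-enriched pool and 46.5 to 55.6% in the whole-cell pool, beside the Myh11 shares of cells with Ptprc given above, and the first division leaves out the cells with both. DESeq2 called 9 members, among 9.68% of all genes, and, without WT replicate 2, edgeR called 8, among 8.14%. A second division, added after the data were seen, took cells with more UMIs of one marker than of the other and called 18 members, with 36.0% of all genes called.

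The Higd1b side held Vtn and the collagen receptor. By the second division Vtn was at 254, 288, 370 and 269 CPM in Higd1b cells and at 4.62, 8.07, 9.74 and 9.25 CPM in Myh11 cells of WT replicates 1 and 2 and Tubb3-/- replicates 1 and 2 (5.08 ± 0.16 on the log2 scale). Itga1 was at 1474, 1984, 1660.1 and 2028 CPM against 285, 360, 280 and 304 CPM. Postn was at 2668, 2865, 2900.4 and 3463 CPM against 452, 460, 747 and 662 CPM (2.23 ± 0.16). Every mouse had the higher value in Higd1b cells for these 3 genes.

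Itga6, the laminin receptor subunit, was the fourth member on the Higd1b side, at 29.5, 61.1, 40.8 and 80.9 CPM against 3.63 to 7.92 CPM. Itga4 was at 77.4, 143, 144 and 172 CPM in Higd1b and 51.6 to 72.5 CPM in Myh11 cells by the second division. By the first it did not pass, with 19 UMIs on the Higd1b side. The mural Itga4 described above therefore lay on both sides of the division.

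The Myh11 side held Itga8, Itga9 and Itga5, with 3 ligands whose values moved with the division. Itga8 was at 99.5, 94.9, 104 and 112 CPM in Higd1b cells and at 895, 827, 745 and 779 CPM in Myh11 cells. By the first division its log2 difference was -3.75 ± 0.36 (edgeR adjusted p = 9.32e-23), and those of Itga9 and Itga5 were -2.63 ± 0.39 and -2.36 ± 0.37. These 3 values rested on 23, 16 and 23 UMIs on the Higd1b side, with 1, 0 and 0 in Tubb3-/- replicate 2. The ligands Tnc (-2.25 ± 0.36), Thbs1 (-2.08 ± 0.31) and Fn1 (-0.92 ± 0.30) lay on the same side, with 23, 178 and 128 UMIs in Higd1b cells. By the second division they differed by -1.40 ± 0.19, -1.99 ± 0.17 and -1.32 ± 0.15, and within the clusters that carried mural markers by -0.38 ± 0.17, -1.98 ± 0.16 and -0.88 ± 0.15, where Tnc no longer passed (adjusted p = 0.0810). By the second division Tnc was at 84.7, 61.1, 133 and 268 CPM in Higd1b cells and at 252, 222, 392 and 345 CPM in Myh11 cells. The fibroblast markers in the mural gate are given above, and their part in these ligand values was not tested beyond the clusters. Itga3, Itgb3, Itga7 and Thbs2 also passed, but had 1, 1, 4 and 6 UMIs in all on the Higd1b side and entered the test through their level in Myh11 cells. DESeq2 called none of these 4, nor Fn1. The second division has the same limit for 3 of its 18 called members, namely Itga3, with 7 UMIs on the Higd1b side (0 to 6.61 against 29.4 to 35.6 CPM), Itgb3, with 6 (1.70 to 3.68 against 18.9 to 28.5 CPM), and Itgb8, with 5, and for Itga2b, which was tested with 4 and not called. Itga7 and Thbs2, with 62 and 28 UMIs there, differed by -1.07 ± 0.22 and -2.13 ± 0.24. Itgav, another subunit of the arginine-glycine-aspartate receptors, did not pass by either division. Itgb1 and Npnt did not pass, at adjusted p = 0.127 and 0.179.

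**Figure D5:**
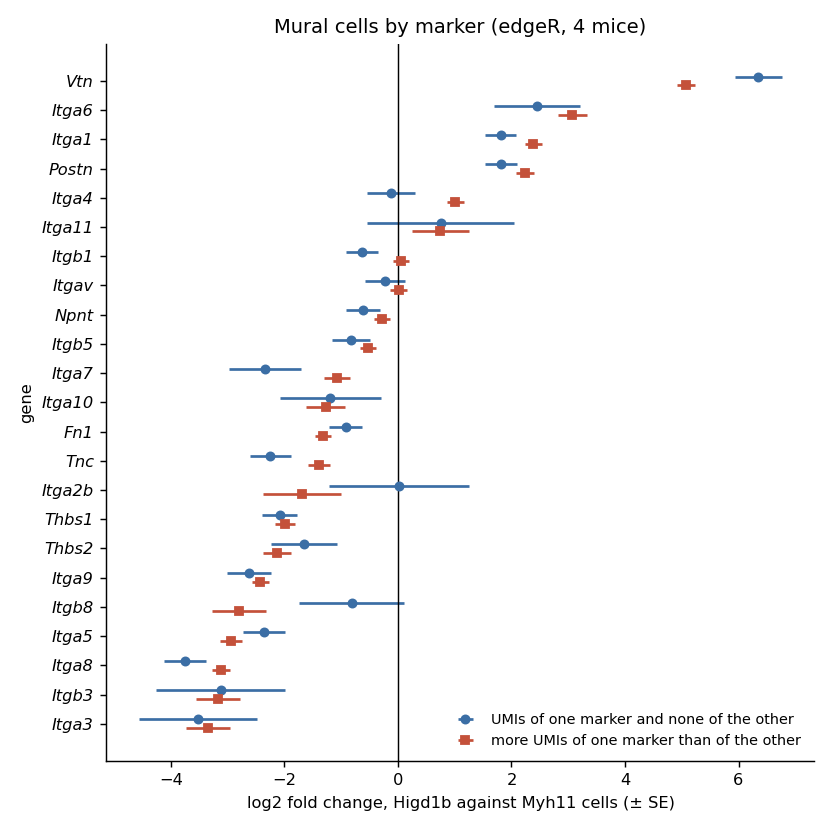
Log2 difference of Higd1b against Myh11 mural cells for the members tested, with standard errors, by the first division (cells with only 1 of the markers, blue circles) and by the second (more UMIs of 1 marker, red squares). Vtn, Itga6, Postn and Itga1 lay above 0 and Itga8, Itga9, Itga5, Tnc and Thbs1 below 0 by both divisions. The points of Itga3 and Itgb3 rest on 1 UMI each on the Higd1b side in the first division and on 7 and 6 in the second.

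Because replicate number follows sex, males and females were also compared within the same fit. The share of all genes called was 0.798% in fibroblasts, 0.727% in mural, 0.114% in immune, 0.0708% in endothelial, 0.00960% in epithelial and 1.11% in mesothelial cells. Itga5 was the member called in both fibroblasts and mural cells. It was at 101 and 87.7 CPM in the male and 47.0 and 50.1 CPM in the female fibroblasts (1.02 ± 0.10 on the log2 scale, edgeR adjusted p = 0.00648). In mural cells it was at 342 and 316 against 226 and 188 CPM (0.77 ± 0.08, adjusted p = 0.00774). Males were higher within each genotype in both lineages.

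Postn in fibroblasts was also higher in males (0.60 ± 0.08, adjusted p = 0.0232), so 2 of 30 members were called there and 1 of 29 in mural cells. In mesothelial cells 3 of 18 were called as higher in males, namely Tnc (1.57 ± 0.24), Thbs1 (0.76 ± 0.20) and Fn1 (0.69 ± 0.20, adjusted p = 0.0494). In immune, endothelial and epithelial cells edgeR called 0 members, with 7, 5 and 3 at an unadjusted p under 0.05, where 9.37, 8.57 and 6.41% of all genes lay under it. No other tool was run on sex. A batch shared by the same replicate number cannot be told apart from sex in these mice.

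Other genes of the adhesion pathway were read from 3 lists, of 20 genes of the adhesion machinery, 11 laminins and 26 other ligands and counter-receptors. By genotype edgeR called 0 of them in each of the 6 lineages, with 14 of 48 tested in fibroblasts, 10 of 48 in mural, 7 of 47 in immune, 12 of 47 in endothelial, 2 of 41 in epithelial and 7 of 41 in mesothelial cells at an unadjusted p under 0.05, against 18.1, 11.1, 8.36, 13.7, 4.26 and 8.37% of all genes. DESeq2 called 6, 1, 1, 1, 0 and 0 in that order, against 3.42, 1.14, 0.490, 0.976, 0.0288 and 0.378% of all genes. The fit with a term for sex called 13, 4, 1, 2, 0 and 1, against 10.6, 3.63, 0.163, 1.39, 0 and 2.89%. Between Higd1b and Myh11 mural cells, where edgeR called 15.1% of all genes and DESeq2 9.68%, edgeR called 11 of 16 adhesion genes tested, 3 higher and 8 lower in Higd1b cells, and DESeq2 called 8, 3 higher and 5 lower. Actn1 (-3.23 ± 0.35), Flna (-3.04 ± 0.32) and Zyx (-2.90 ± 0.38), which tie adhesions to actin, were higher in Myh11 cells. Of the laminins, edgeR and DESeq2 each called 4 of 8, with Lamb1 at 2.18 ± 0.32 and Lama5 at -3.41 ± 0.63. Of the other ligands, edgeR called 8 of 15, 2 higher and 6 lower, and DESeq2 called 5, 2 higher and 3 lower.

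In Cthrc1+ against Cthrc1- fibroblasts, 3 of 17 adhesion genes, 4 of 11 laminins and 6 of 18 other ligands were called by edgeR, where 11.9% of all genes were called. Of the adhesion genes 2 were higher and 1, the tensin gene Tns1, lower in Cthrc1+ cells (-0.59 ± 0.09), and of the other ligands 5 were higher and 1, the tenascin gene Tnxb, lower (-0.30 ± 0.07). DESeq2 called 3, 2 and 6 of them, where it called 8.06% of all genes. Those higher included Spp1 (1.96 ± 0.28), which encodes osteopontin, the tenascin Tnn (1.79 ± 0.37) and the TGF-β genes Tgfb2 (1.09 ± 0.15) and Tgfb1 (0.99 ± 0.09). Of the laminins, edgeR called 2 as higher and 2 as lower, and DESeq2 called 0 as higher and 2 as lower.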

How the data were processed

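Single-cell RNA was sequenced from 2 multiplexed 10x CellPlex pools, of whole lung cells and of mural cell-enriched cells, each holding 2 WT and 2 Tubb3-/- mice. Per the submitters' processing notes the authors used Cell Ranger 7.1.0 and mm10, and they deposited raw UMI counts per gene and cell, demultiplexed by mouse. Whether counting used strand is not given in the sources used here. Members that overlap other genes, among them Fn1 (Apol7d), Tnc (8030451A03Rik), Itga1 (Pelo) and Itga4 (Cerkl), may share reads with them.

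Cells with 200 to 7500 genes and at most 15% mitochondrial UMIs were kept (30860), and 777 doublets called by Scrublet in scanpy 1.11.5 (0.982% of the whole-cell and 3.82% of the mural-enriched pool) were removed. The median depth of the 8 sets of cells, divided by mouse and pool, ran from 9344 to 16203 UMIs per cell. Counts were summed per mouse and lineage over both pools and tested with edgeR 4.0.16 (filterByExpr, TMM, quasi-likelihood F test, Benjamini-Hochberg adjustment over all genes tested, threshold 0.05) in R 4.3.3, with DESeq2 1.42.0 as an alternative. Scripts were tested on simulated data. Comparisons between cells of the same mice took mouse as a block. The overlap of genotypes was counted for genes that averaged 10 CPM or more, the level also used for naming members: those called, and up to 8 others per genotype comparison with the largest fold change and no overlap. Finer cell types were gated on single markers and given without a test. Values after ± are SDs over mice for CPM and standard errors of the edgeR fit for log2 differences, and both include the spread between mice. The floor given for a count of 0 takes 3 counts and covers counting error only. The members and lists were chosen with earlier results of these data known. The leftover sample-tag libraries served as a check of the mouse labels.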

Additional observations from a re-analysis of the deposited data

How the results depend on the processing

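The counts of members called by genotype moved with the settings. DESeq2 gave 4 in fibroblasts, 2 in mural, 2 in immune and 1 in mesothelial cells, 1 for the interaction, 3 in Cthrc1- and 3 in Cthrc1+ fibroblasts, and 9 for Higd1b against Myh11 cells. The replicate block gave 9 in fibroblasts, 4 in mural and 5 in mesothelial cells, 5 in Cthrc1- and 7 in Cthrc1+ fibroblasts. Same-numbered mice correlated by 0.0772 to 0.302 in their deviations from the genotype means, which is not over 0.1 in every lineage. The number follows sex. Without the low-count filter there were 4 in mural, 4 in immune, 1 in endothelial, 1 in epithelial and 5 in mesothelial cells, 7 for the interaction, 2 in Cthrc1- and 7 in Cthrc1+ fibroblasts, among 3.67, 1.26, 4.24, 0.816, 1.76, 3.20, 0.498 and 4.62% of all genes. With 2 or more UMIs of a marker there were 4 in mesothelial cells and 1 for the interaction, among 0.355 and 0.154% of all genes, and with doublets kept 1 in mesothelial cells, among 0.356%. Clusters gave 1 in fibroblasts, 1 in endothelial cells and 2 in Cthrc1- fibroblasts.

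Leaving out each mouse in turn gave 0 to 8 members in fibroblasts, 0 to 4 in mural, 0 to 5 in immune, 0 to 1 in endothelial, 0 in epithelial and 0 to 6 in mesothelial cells. It gave 32 for lineage differences, 0 for the interaction, 8 to 14 for Higd1b against Myh11, 6 to 9 for Cthrc1+ against Cthrc1-, 0 to 9 in Cthrc1- and 0 to 4 in Cthrc1+ fibroblasts. The share of all genes called was highest without WT replicate 1 in fibroblasts (6.43%), immune cells (3.11%), Cthrc1- (6.90%) and Cthrc1+ fibroblasts (2.96%), without WT replicate 2 in mural cells (3.78%) and without Tubb3-/- replicate 2 in mesothelial cells (3.33%), and each of these fits also gave the highest count of members. The 1 endothelial call came without Tubb3-/- replicate 2, among 0.768%. A lone remaining mouse was assumed to vary like the other group.

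Values that changed sign were, by clusters, Thbs2 in mural (-0.24) and mesothelial (-0.0475), Fn1 (-0.39) and Itga9 (-0.29) in mesothelial, Itga9 in immune (0.10) and Itgb5 in epithelial cells (0.17). In the whole-cell pool alone they were Itgb8 in mural (-0.0073) and Fn1 in mesothelial cells (-0.63), and in the mural-enriched pool alone Fn1 (-0.63) and Itga6 (-0.82) in immune cells. Itga9 in mesothelial cells was -0.41 with 2 or more UMIs of a marker. Leaving out a mouse, Itga3 in mural cells ran from -0.35 (without WT replicate 2) to 0.0235 (without WT replicate 1), and Itga5 in endothelial cells from -0.17 (without Tubb3-/- replicate 1) to 0.0137 (without Tubb3-/- replicate 2). The cause was not tested. Of the other values of named members, 922 kept direction and side of the threshold, 123 came to pass it and 44 ceased to. Higd1b against Myh11 in the whole-cell pool alone was not run, since its sums held under 10000 UMIs.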

Other observations

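Some members were high in finer cell types that were summed into their lineage and not compared on their own. Itga9, an integrin subunit required in lymphatic valves, was at 904 and 727 CPM in the WT and 575 and 805 CPM in the Tubb3-/- lymphatic endothelial cells, which were 23 cells in all, and at 22.6 to 30.7 CPM in general capillary cells. Itga11, a fibrillar collagen receptor subunit usually read as a fibroblast gene, was at 22.5 to 65.8 CPM in the 54 ciliated cells and at 3.35 to 5.79 CPM in fibroblasts. It rested on 20, 7, 22 and 5 UMIs in all epithelial cells of WT replicates 1 and 2 and Tubb3-/- replicates 1 and 2, of which 5 cells held 65, 100, 59.1 and 100%. Itga2, listed at 108 to 155 CPM in general capillary cells, was at 166 to 343 CPM in aerocytes. Both genotypes were represented in each of these cell types, and none of the differences was tested.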
